A study of Mus musculus with 8 samples.

Results

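Neurotrophins are secreted growth factors that keep neurons alive, guide their processes and tune synapses, and 8 genes of this signalling system were examined in mouse brain at 6m and 24m of age. They were taken by name from the gene count table: the ligands Bdnf and Ntf3, the receptor tyrosine kinases Ntrk2 and Ntrk3, the receptor Ngfr, and the sortilin family receptors Sort1, Sorcs1 and Sorcs3. All 8 were found among 22430 listed genes, and all 8 passed the filter on low counts, as did 16730 genes in total.

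The animals were male C57Bl/6JRj mice without a transgene or treatment, 4 of them young adult (6 months, 6m) and 4 aged (24 months, 24m). The labels call the tissue whole brain, and the protocol describes a brain hemisphere. Each library came from polyadenylated RNA of 1 mouse, so p-values measure the spread between these mice. In such bulk tissue, fewer cells of a type and less RNA per cell cannot be told apart.

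The ligands are made as proneurotrophins and cleaved to mature forms. Mature BDNF binds the kinase TrkB, the product of Ntrk2, and NT-3 binds mainly TrkC, the product of Ntrk3. The p75 receptor encoded by Ngfr binds all neurotrophins, and together with sortilin, the product of Sort1, it binds the proforms. Sortilin and its relatives SorCS1 and SorCS3 also sort cargo between the Golgi, endosomes and the cell surface.

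Levels are given as CPM, the counts per 1000000 after scaling by edgeR's TMM factors. The fold changes are 24m minus 6m on the log2 scale from the quasi-likelihood test of edgeR over all genes. A gene was called, and is said below to have risen or fallen, when the p adjusted by Benjamini-Hochberg did not exceed 0.05 and the log2 fold change reached 0.58 in size. Library totals were 63460940 to 103462414 counts. Replicate 1 of 24m was the deepest library and stood apart from the other aged libraries, with a mean Spearman rho across genes of 0.980 to its own age and 0.978 to 6m, against 0.986 to 0.992 to their own age for the other 24m libraries. Values of the 8 genes that turned on it are also given without it.

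Ngfr, Sort1 and Sorcs1 rose in the aged brain, and none of the 8 genes fell past both thresholds. The 3 genes that rose stood against a background of 25.3% of all tested genes called higher, and the 0 that fell against 18.3% called lower. Another 4 genes met the adjusted p and missed the fold threshold: Ntrk2 and Sorcs3 were higher at 24m and Ntf3 and Ntrk3 lower. With the adjusted p alone, 5 of the 8 were higher, where 32.7% of all genes were, and 2 were lower, where 29.9% of all genes were. Bdnf passed neither threshold. In 6 of the 8 genes the libraries of the ages did not overlap, as in 55.2% of all tested genes. Without 24m replicate 1 the corresponding count was 7 of 8 beside 72.2% of all genes, and 5 of the 8 genes were called higher beside 28.2% of all genes. The median log2 fold change was 0.49 over the 8 genes and -0.0034 over all genes.

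The direction of small fold changes depended on scaling. With library totals in place of TMM factors the median over all genes moved from -0.0034 to 0.21, and 75.7% of called genes were higher in place of 58.1%. After quantile normalization and DESeq2 the median was -0.10 and 47.9% of called genes were higher. Values that follow use TMM scaling unless another setting is named.

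**Figure D1:**
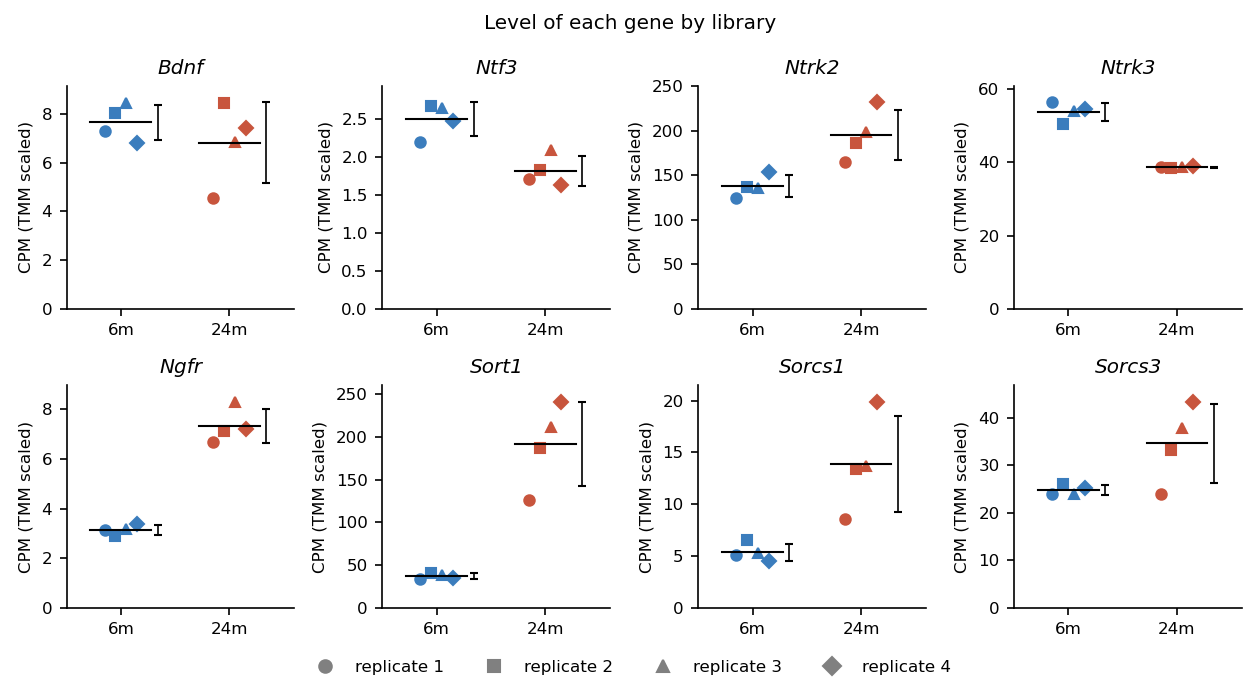
Level of each of the 8 genes in every library, in TMM-scaled CPM on linear axes that start at 0. Symbols are replicates, horizontal lines are means and bars are SD (n = 4 per age). Ntrk2, Ngfr, Sort1 and Sorcs1 lie higher in every 24m library than in any 6m library, Ntf3 and Ntrk3 lie lower, and Bdnf and Sorcs3 overlap between ages.

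Among the ligands, Bdnf, the neurotrophin best known for activity-dependent plasticity, showed no called difference between ages. Bdnf (ENSMUSG00000048482) lies on the plus strand at chr2:109505045-109557475 (GRCm39) and has 18 annotated transcripts, which start from several alternative promoters. Its level was 7.30, 8.05, 8.48 and 6.84 CPM in 6m replicates 1 to 4. The 24m replicates 1 to 4 held 4.56, 8.48, 6.88 and 7.42 CPM. Replicate 1 of 24m was the lowest of all 8 libraries, and the other 3 aged libraries lay within the range of the young ones. The means were 7.67 ± 0.735 CPM at 6m and 6.83 ± 1.66 CPM at 24m (SD, n = 4 each). Its log2 fold change was -0.17 ± 0.18 (SE), with a 95% interval of -0.57 to 0.24 and an edgeR adjusted p of 0.441. Without 24m replicate 1 it was 0.0055. Quantile normalization with DESeq2 gave -0.49 with an adjusted p of 0.00321. With the trend of each library over exonic length removed it was -0.40 (adjusted p = 0.048), and once the GC trend was taken out -0.37 (adjusted p = 0.0461). None of these values reached the fold threshold.

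Ntf3, which encodes NT-3, a factor best known for the survival of proprioceptive sensory neurons, was lower at 24m. The gene (ENSMUSG00000049107) lies on the minus strand at chr6:126078375-126143873 with 3 annotated transcripts. It was measured at 2.20, 2.67, 2.65 and 2.48 CPM in 6m replicates 1 to 4. In 24m replicates 1 to 4 it stood at 1.71, 1.84, 2.09 and 1.64 CPM. All 4 aged libraries lay below all 4 young ones. The means were 2.50 ± 0.222 and 1.82 ± 0.198 CPM (SD, n = 4 each). In log2 terms the difference was -0.46 ± 0.14 (SE) with an edgeR adjusted p of 0.0154, which missed the fold threshold. The value was -0.77 and called lower after quantile normalization and DESeq2, and -0.24 (adjusted p = 0.172) with library totals. Once the trend over exonic length was removed it was 0.10 (adjusted p = 0.601). The smallest count of Ntf3 in any library was 143, so counting noise adds to its spread.

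A further ligand outside the 8 genes, Ntf5, encodes NT-4, which also binds TrkB. It was near the limit of detection with 8 to 30 counts per library. Its difference of -0.73 ± 0.37 in log2 (SE, edgeR adjusted p = 0.107) was not called, and it was -0.48 without 24m replicate 4. With the replicate number as a block it was -0.78 and called lower (edgeR adjusted p = 0.0442).

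The genes of the Trk receptors differed between ages in opposite directions. Ntrk2 encodes TrkB, whose full-length form signals in neurons and whose truncated form lacks the kinase and predominates in astrocytes. It lies on the plus strand at chr13:58954176-59281784 (ENSMUSG00000055254) with 40 annotated transcripts, and gene counts do not separate the forms. Ntrk2 was at 124.9, 136.3, 135.5 and 154.1 CPM in 6m replicates 1 to 4. It reached 164.3, 186.4, 198.3 and 231.7 CPM in 24m replicates 1 to 4. Every aged library lay above every young one, and 24m replicate 1 was the lowest of the aged. The means of 137.7 ± 12.1 and 195.2 ± 28.2 CPM (SD, n = 4 each) differed by a factor of 1.42. This gave a log2 fold change of 0.50 ± 0.11 (SE, 95% interval 0.25 to 0.76, edgeR adjusted p = 0.00382).

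The call for Ntrk2 depended on the setting. It was called higher with library totals at 0.73, after quantile normalization and DESeq2 at 0.65, and without 24m replicate 1 at 0.60 (adjusted p = 0.00014). With the length trend removed its sign turned, to -0.20 (adjusted p = 0.293), the union of its annotated exons being 29922 bases long. Of 8 astrocyte markers, 5 rose and 1 fell. Among those that rose, Gfap was at 189.8 ± 19.2 CPM at 6m and 519.9 ± 104.1 CPM at 24m (SD, n = 4 each). S100b, the 1 that fell, was at 301.1 ± 60.8 CPM at 6m and 123.1 ± 27.3 CPM at 24m (SD, n = 4 each). Aldoc and Aldh1l1 were lower at -0.29 and -0.26 in log2 and not called. The summed level of the 8 markers, most of which is Aldoc, was 2892 to 3826 CPM at 6m and 2847 to 3844 CPM at 24m (at most 3101 CPM without 24m replicate 1). The part of these markers in the Ntrk2 difference was not tested.

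Ntrk3, the gene of TrkC, was lower in the aged brain. It lies on the minus strand at chr7:77825707-78387760 (ENSMUSG00000059146) and has 38 annotated transcripts, some of which also lack the kinase. It was at 56.4, 50.6, 54.0 and 54.5 CPM in 6m replicates 1 to 4. The values in 24m replicates 1 to 4 were 38.6, 38.5, 38.8 and 38.9 CPM. The aged libraries lay closely together and all below the young ones, and 24m replicate 1 did not differ from the others in this gene. The mean moved from 53.9 ± 2.43 to 38.7 ± 0.146 CPM (SD, n = 4 each). Its log2 fold change was -0.48 ± 0.07 (SE, 95% interval -0.64 to -0.32, edgeR adjusted p = 0.000445), short of the fold threshold. It was called lower with the length trend removed at -1.14 and with the GC trend removed at -0.68, and with library totals it was at -0.26 (adjusted p = 0.0106).

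Within each library, where scaling between libraries cancels, the ratio of Ntrk2 to Ntrk3 counts was higher at 24m. The log2 ratio was 1.15, 1.43, 1.33 and 1.5 in 6m replicates 1 to 4. It was 2.09, 2.27, 2.35 and 2.58 in 24m replicates 1 to 4, without overlap between ages. The mean difference of 0.97 corresponded to a 1.96-fold higher ratio. The exact permutation test over the 70 assignments of 8 libraries to 4 and 4 gave p = 0.0286 (two-sided), the smallest it can give, and an adjusted p of 0.0457 over the 8 ratios compared.

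**Figure D2:**
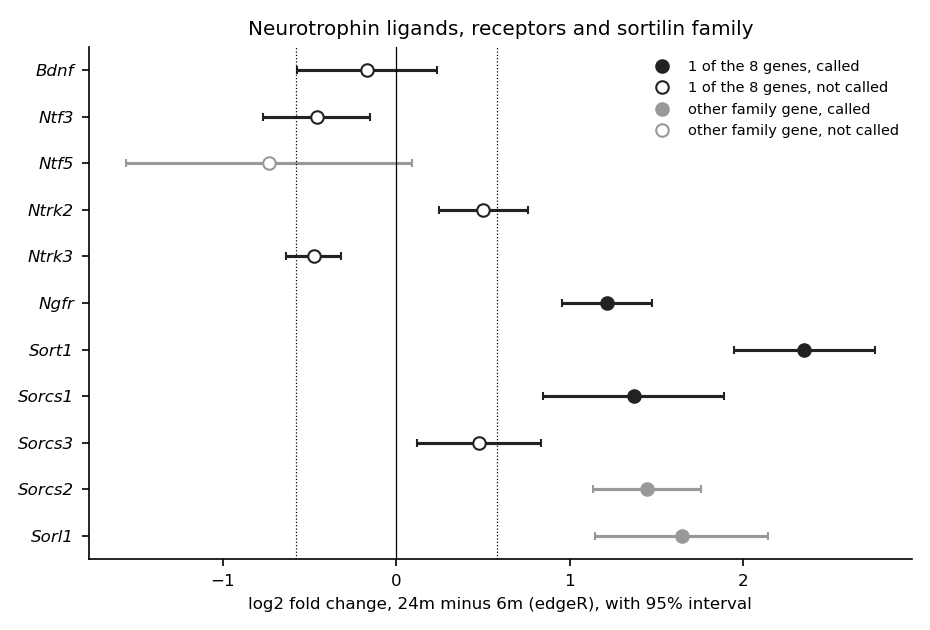
Log2 fold change (24m minus 6m, edgeR) with its 95% interval for the 8 genes in black and for 3 further family genes in grey, ordered as ligands, Trk receptors, Ngfr and sortilin family. Filled points were called and dotted lines mark the fold threshold of 0.58 in each direction. The points of the ligands lie left of 0, and all intervals of Ngfr and the sortilin family lie right of 0.

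Ngfr encodes the p75 neurotrophin receptor, a member of the tumour necrosis factor receptor family that carries a death domain. In the adult brain it is best known from basal forebrain cholinergic neurons, and outside the brain from Schwann cells. Ngfr (ENSMUSG00000000120) lies on the minus strand at chr11:95459638-95478561 with 2 annotated transcripts. Ngfr was at 3.12, 2.90, 3.19 and 3.39 CPM in 6m replicates 1 to 4. It was at 6.66, 7.11, 8.30 and 7.20 CPM in 24m replicates 1 to 4. The young libraries were all alike, and the lowest aged library, 24m replicate 1, stood well above the highest young one. The mean rose from 3.15 ± 0.202 to 7.32 ± 0.695 CPM (SD, n = 4 each), a factor of 2.32. The log2 fold change was 1.22 ± 0.12 (SE, 95% interval 0.96 to 1.48, edgeR adjusted p = 5.5e-05). Over 19 alternative settings it stayed called, with values of 0.87 to 1.44.

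Markers of cells in which Ngfr is commonly found were listed beside it. Of 5 basal forebrain cholinergic genes, 1 rose (Slc5a7, the choline transporter) and 0 fell, and their summed level was 19.6 to 27.3 CPM at 6m and 19.2 to 21.1 CPM at 24m. Chat, the enzyme that makes acetylcholine, was at 4.23 ± 0.440 CPM at 6m and 4.42 ± 0.508 CPM at 24m (SD, n = 4 each, edgeR adjusted p = 0.690). Slc18a3, the vesicular acetylcholine transporter and the most abundant of the 5, was at 11.5 ± 2.51 and 7.70 ± 1.43 CPM (-0.57 in log2, edgeR adjusted p = 0.0182), just short of the fold threshold. Of 5 tested Schwann cell genes, 0 rose and 1 fell (Egfl8), with sums of 6.09 to 11 CPM and 3.87 to 15.4 CPM. The upper value at 24m was that of replicate 1, and the other 24m libraries held 3.87 to 4.85 CPM. A sixth Schwann cell gene, Pmp2, did not pass the filter. Of 7 meningeal fibroblast genes, 1 rose (Igf2), with sums of 69.95 to 84.9 CPM and 77.6 to 85.4 CPM. No tested marker was at 0 in any library, and the part of these cells in the Ngfr difference was not tested.

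The sequence before the start of Ngfr is shown because this gene rose in every setting. RefSeq promoter windows, given for the build GRCm38.p6, hold 250 bases before the RefSeq start, and that of Ngfr was placed on GRCm39 by an exact match at chr11:95478525-95478774, minus strand. Its last 37 bases lie within the gene as GENCODE annotates it, and the other 213 bases, chr11:95478562-95478774, are printed. Capitals mark the GC box, the letters GGGCGG or, on the other strand, CCGCCC.
Ngfr: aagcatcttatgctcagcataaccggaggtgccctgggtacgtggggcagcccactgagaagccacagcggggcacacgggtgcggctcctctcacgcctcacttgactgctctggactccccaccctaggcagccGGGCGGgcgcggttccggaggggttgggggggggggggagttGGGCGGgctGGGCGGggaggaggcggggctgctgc
The whole Ngfr window held 4 GC boxes, at 114, 72, 63 and 16 bases before the RefSeq start (the last of them within the GENCODE gene), with a GC content of 70.4% and 16 CpG sites. Of 32851 windows of the same length in the table, 32.7% held at least 1 GC box, the median GC content was 52.4% and the median number of CpG sites was 6. A match of letters is a description of the sequence, not evidence of binding.

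Relative to Ntrk2, Ngfr was higher at 24m. The log2 ratio of Ngfr to Ntrk2 counts was -5.45 ± 0.104 at 6m and -4.73 ± 0.193 at 24m (SD, n = 4 each). The difference was 0.72, without overlap between ages (exact permutation p = 0.0286, two-sided, adjusted p = 0.0457).

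Among the sortilin family, Sort1 had the largest fold change of the 8 genes. It encodes sortilin, which is the co-receptor of p75 for proneurotrophins and also routes BDNF to the regulated secretory pathway and progranulin to lysosomes. The gene (ENSMUSG00000068747) lies on the plus strand at chr3:108191285-108268842 with 18 annotated transcripts. Sort1 was at 34.4, 41.2, 39.0 and 35.5 CPM in 6m replicates 1 to 4. The 24m replicates 1 to 4 held 126.2, 187.4, 211.8 and 241.3 CPM. Even the lowest aged library, replicate 1, was far above the highest young one, and the spread among the aged was wide. The mean rose 5.11-fold, from 37.5 ± 3.13 to 191.7 ± 48.9 CPM (SD, n = 4 each). The log2 fold change was 2.35 ± 0.18 (SE, 95% interval 1.95 to 2.76, edgeR adjusted p = 2.4e-05), and 19 alternatives gave 2.08 to 2.58, all called. Exons of Sort1 share 1760 bases with the antisense RNA Gm12522 and 451 with Gm12523, and how strand was used in counting is not known, so reads of these genes may be included. Shared bases of that kind numbered 1028 for Bdnf (Gm45346), 388 for Ntrk3 (Gm9885), 213 for Ntf3 (Gm67883) and 213 and 168 for Sorcs1 (Gm45352 and Gm59089), and Ntrk2, Ngfr and Sorcs3 had none.

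Sort1 also rose relative to Ngfr, its partner at the membrane. The log2 ratio of Sort1 to Ngfr counts was 3.57 ± 0.195 at 6m and 4.68 ± 0.337 at 24m (SD, n = 4 each). The difference of 1.11 came without overlap between ages (exact permutation p = 0.0286, two-sided, adjusted p = 0.0457).

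Sorcs1 encodes a sorting receptor of the same Vps10p domain family, known for the traffic of amyloid precursor protein and neurexins. The gene (ENSMUSG00000043531) lies on the minus strand at chr19:50131737-50667093 with 6 annotated transcripts. Its level was 5.15, 6.52, 5.28 and 4.52 CPM in 6m replicates 1 to 4. It was 8.56, 13.4, 13.7 and 19.9 CPM in 24m replicates 1 to 4. Every aged library exceeded every young one, with replicate 1 the lowest and replicate 4 the highest of the aged. The mean rose from 5.37 ± 0.836 to 13.9 ± 4.64 CPM (SD, n = 4 each), a factor of 2.59. The log2 fold change was 1.37 ± 0.23 (SE, 95% interval 0.85 to 1.89, edgeR adjusted p = 0.000863), and the 19 alternatives gave 1.06 to 1.6, all called.

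Sorcs3, a close relative of Sorcs1 on the same chromosome, is known for its postsynaptic role in hippocampal plasticity. It lies on the plus strand at chr19:48194464-48793944 (ENSMUSG00000063434) with 4 annotated transcripts. Sorcs3 was at 23.9, 26.2, 23.9 and 25.3 CPM in 6m replicates 1 to 4. It was at 23.9, 33.2, 37.9 and 43.4 CPM in 24m replicates 1 to 4. Replicate 1 of 24m lay at the level of the young libraries and the other 3 aged libraries lay above all of them. The means were 24.8 ± 1.09 and 34.6 ± 8.24 CPM (SD, n = 4 each). In log2 terms the difference was 0.48 ± 0.16 (SE, 95% interval 0.12 to 0.84, edgeR adjusted p = 0.0249), under the fold threshold. Without 24m replicate 1 it was 0.64 and called (adjusted p = 0.000132), and with library totals 0.71 and called. The adjusted p rose above 0.05, to 0.0515 to 0.067, without any 1 of 24m replicates 3 and 4 and 6m replicates 1, 3 and 4, and to 0.106 with the length trend removed.

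Within libraries the 3 sortilin genes moved by unequal amounts. The log2 ratio of Sorcs1 to Sort1 counts went from -2.81 ± 0.140 at 6m to -3.81 ± 0.153 at 24m (SD, n = 4 each), a ratio 2.00-fold lower in the aged brain. That of Sorcs3 to Sorcs1 went from 2.22 ± 0.197 to 1.35 ± 0.167, a difference of -0.87. In neither ratio did the ages overlap, and each had an exact permutation p of 0.0286 (two-sided) and an adjusted p of 0.0457.

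Sequences before the RefSeq start of Sorcs1 and Sorcs3, from the same table, are shown because these relatives differed in their change with age. The window of Sorcs1 was placed at chr19:50667085-50667334 on the minus strand, of which the last 9 bases lie within the GENCODE gene and the other 241 are printed, and that of Sorcs3 at chr19:48194214-48194463 on the plus strand (GRCm39), printed whole, with the GC box again in capitals.
Sorcs1: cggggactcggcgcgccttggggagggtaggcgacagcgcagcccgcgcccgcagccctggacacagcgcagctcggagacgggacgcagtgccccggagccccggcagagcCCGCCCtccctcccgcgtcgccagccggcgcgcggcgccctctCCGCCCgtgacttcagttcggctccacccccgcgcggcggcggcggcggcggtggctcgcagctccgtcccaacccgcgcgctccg
Sorcs3: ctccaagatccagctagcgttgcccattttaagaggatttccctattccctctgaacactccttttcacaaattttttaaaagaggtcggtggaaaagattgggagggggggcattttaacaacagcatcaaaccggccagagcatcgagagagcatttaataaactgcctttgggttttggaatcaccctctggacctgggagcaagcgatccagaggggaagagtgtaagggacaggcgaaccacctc
The Sorcs1 window held 2 GC boxes, at 138 and 95 bases before the RefSeq start, with 79.6% GC and 41 CpG sites. Sorcs3 held 0 GC boxes, with 48.4% GC and 6 CpG sites. The single Ntrk2 window, at 62.8% GC with 19 CpG sites, held 0, 2 of 7 Bdnf windows held at least 1, and both Ntf3 windows did. In all, 13 windows matched 6 of the 8 genes, and Sort1 and Ntrk3 had no entry.

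The relatives outside the set of 8 moved in the same direction as Sort1. Sorcs2, which encodes a further p75 partner for proBDNF, rose from 20.6 ± 2.55 to 56.0 ± 8.92 CPM (SD, n = 4 each), or 1.45 ± 0.14 in log2 (SE, edgeR adjusted p = 5.6e-05). Sorl1, the gene of the sorting receptor SorLA, which directs amyloid precursor protein away from cleavage, rose from 58.2 ± 2.45 to 182.4 ± 63.3 CPM, or 1.65 ± 0.22 in log2 (SE, edgeR adjusted p = 0.00027). Neither overlapped between ages.

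**Figure D3:**
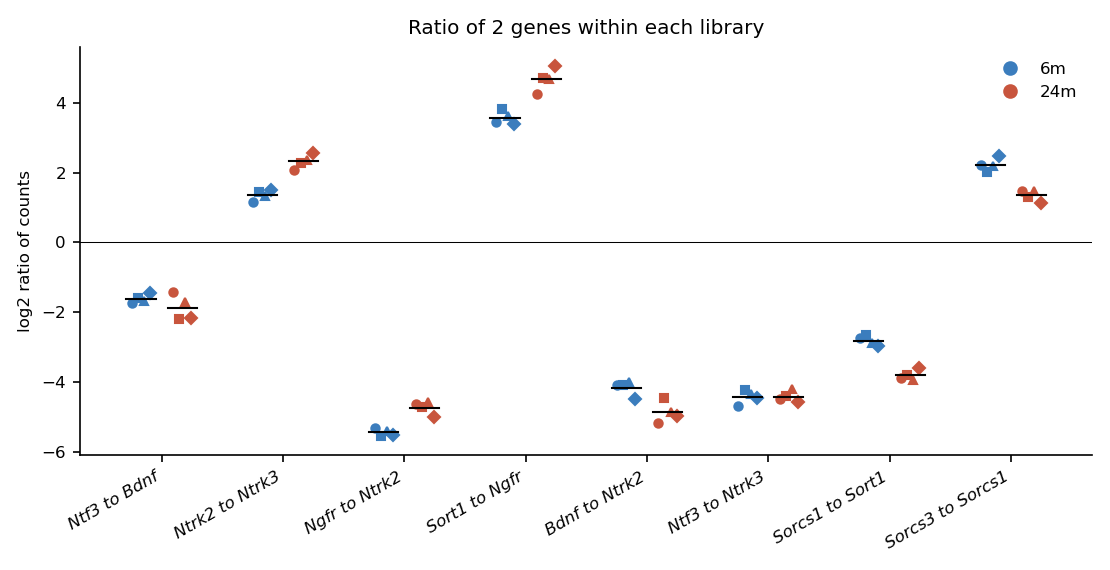
Log2 ratio of the counts of 2 genes within each library, with 0.5 counts added to each, for the 8 ratios compared. Points are libraries, the 4 symbols are replicate numbers and horizontal lines are means (n = 4 per age). The ages separate for Ntrk2 to Ntrk3, Ngfr to Ntrk2, Sort1 to Ngfr, Sorcs1 to Sort1 and Sorcs3 to Sorcs1, and overlap for the other 3.

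Ratios of ligand to ligand and of ligand to receptor were not past the threshold. The log2 ratio of Bdnf to Ntrk2 was -4.17 ± 0.222 at 6m and -4.86 ± 0.30 at 24m (SD, n = 4 each), which differed by -0.69 (two-sided exact permutation p = 0.0571, adjusted p = 0.0762). In 24m replicate 2, at -4.46, it overlapped the young libraries, and without that library the difference was -0.83 with an adjusted p of 0.0381. The log2 ratio of Ntf3 to Ntrk3 was -4.43 ± 0.188 and -4.41 ± 0.154, a difference of 0.014 (exact permutation p = 0.943), the level of each gene being itself lower at 24m. That of Ntf3 to Bdnf differed by -0.26 (exact permutation p = 0.314), with overlap between ages. The difference was -0.42 without 24m replicate 1 (adjusted p = 0.0762), -0.16 without 24m replicate 2 and -0.17 without 24m replicate 4, and none of these passed the threshold.

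To compare levels between genes, CPM were divided by the exonic length in kilobases, the union of all annotated exons, and then by the length of the longest transcript. By exonic length, at 6m Ntrk2 with 4.6 ± 0.405 and Sort1 with 4.57 ± 0.382 CPM per kilobase (SD, n = 4 each) shared the top and overlapped. Below them came Sorcs3 at 3.48, Ntrk3 at 1.72 and Ntf3 at 1.44 CPM per kilobase, each apart from its neighbours. Bdnf at 1.01 and Ngfr at 0.912 CPM per kilobase overlapped, and Sorcs1 was lowest at 0.623. By the longest transcript, which for Ntrk2 has 9050 of 29922 exonic bases, Ntrk2 stood alone at the top at 15.2 ± 1.34 CPM per kilobase and did not overlap Sort1 at 5.34 ± 0.446 (SD, n = 4 each). Bdnf at 1.74 and Ntf3 at 1.57 then changed places and overlapped, and 6 of the 8 genes kept their place.

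At 24m the order by length-scaled level differed from that at 6m. By exonic length Sort1 stood alone at the top with 23.4 ± 5.96 CPM per kilobase, above Ntrk2 at 6.52 ± 0.941 (SD, n = 4 each), which overlapped Sorcs3 at 4.84. Ngfr at 2.12, the seventh at 6m, now overlapped Sorcs1 at 1.61, and Sorcs1 in turn overlapped Ntrk3 at 1.24. Ntf3 at 1.05 and Bdnf at 0.900 CPM per kilobase came last and overlapped. The top of this order depended on the length used. By the longest transcript Sort1 at 17.97 to 34.4 CPM per kilobase overlapped Ntrk2 at 18.2 to 25.6, and Ntrk2 no longer overlapped Sorcs3, which reached at most 7.70. Of the 8 genes, 4 then kept their place, and Ntf3 at 1.14 lay below Bdnf at 1.55 CPM per kilobase, the ranges still overlapping.

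**Figure D4:**
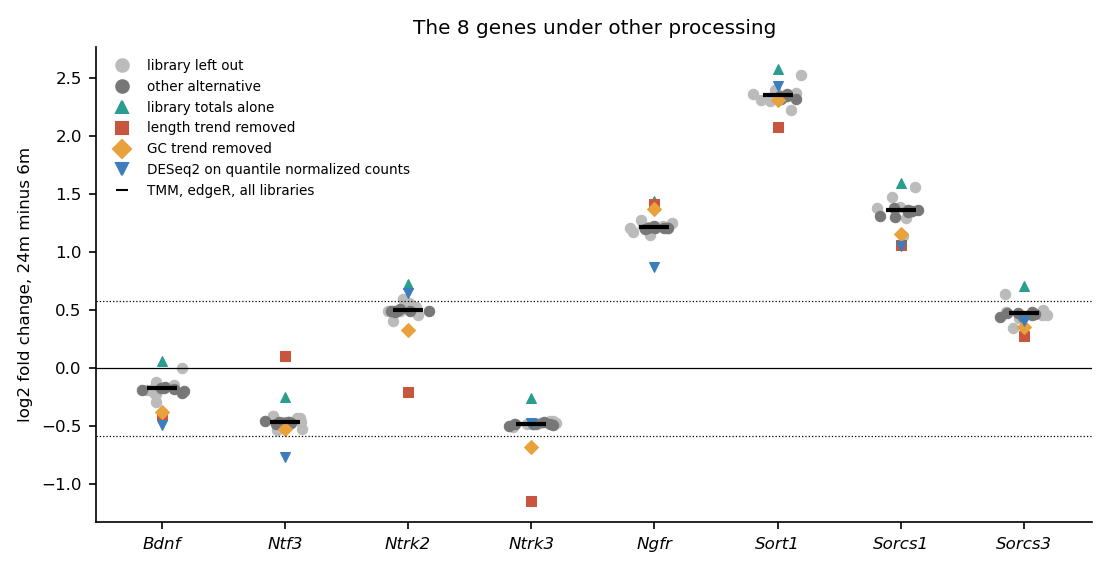
Log2 fold change (24m minus 6m) of each of the 8 genes under TMM scaling with edgeR (black line) and under 19 alternatives, among them each library left out in turn. Dotted lines mark the fold threshold of 0.58 in each direction. Ngfr, Sort1 and Sorcs1 stay above the upper line throughout, and Bdnf, Ntf3 and Ntrk2 cross 0 under at least 1 setting.

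Outside the 8 genes, 106 tested genes of the pathway in 8 lists were read from the same fit, Ntf5, Sorcs2 and Sorl1 among them. Of the 106, 48 rose and 9 fell, where 25.3% of all tested genes rose and 18.3% fell. Their median log2 fold change was 0.42 beside -0.0034 over all genes. Without 24m replicate 1 the counts were 50 and 9, where 28.2% and 21.7% of all genes were called. Past the adjusted p alone, 32.7% of all tested genes were higher and 29.9% lower. These shares of all genes are the background for the counts of every list below. The lists are described by their counts, without a test of any list.

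Trk adaptors and membrane partners link activated Trk receptors to the Ras and PI3 kinase pathways. Of 22 such genes tested, 14 rose, 0 fell and 18 passed the adjusted p, with a median log2 fold change of 1.16 and a range of -0.49 to 2.44. Crkl, an SH2 and SH3 domain adaptor, had the largest called value and rose from 2.46 ± 0.314 to 13.4 ± 3.64 CPM (SD, n = 4 each), or 2.44 ± 0.21 in log2 (SE, edgeR adjusted p = 3.4e-05). Shc3, a neuronal Shc adaptor, had the smallest called value at 0.81 ± 0.24 (SE, edgeR adjusted p = 0.0135). Its level in 24m replicate 1 lay within the young libraries, and the call was lost with the length trend removed at 0.32 and after quantile normalization at 0.55.

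Among 29 genes of the Ras, MAP kinase, PI3 kinase and phospholipase arms, 13 rose, 2 fell and 19 passed the adjusted p. Over all tested genes, 32.7% were higher and 29.9% lower past the adjusted p. The list had a median of 0.40 and a range of -1.05 to 1.63. Rps6ka5, which encodes the nuclear kinase MSK1, rose from 3.40 ± 0.454 to 10.5 ± 3.33 CPM (SD, n = 4 each), or 1.63 ± 0.23 in log2 (SE, edgeR adjusted p = 0.000337). The 2 genes that fell were Hras, a Ras GTPase, from 477.1 ± 43.7 to 230.9 ± 64.5 CPM (log2 fold change -1.05 ± 0.18 SE, edgeR adjusted p = 0.000803), and Map2k2, the gene of the kinase MEK2, which was named after its values were seen.

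The p75 partners and death signalling arm included the death regulators and kinases downstream of the receptor. Of 19 genes tested, 4 rose and 5 fell, beside 25.3% and 18.3% of all genes, and 12 passed the adjusted p, with a median of -0.16 and a range of -1.01 to 2.01. Traf6, an E3 ubiquitin ligase recruited to p75, rose from 0.881 ± 0.061 to 3.56 ± 0.876 CPM (SD, n = 4 each), or 2.01 ± 0.20 in log2 (SE, edgeR adjusted p = 6.9e-05). Zfp369, the gene of a zinc finger protein that binds p75, fell from 8.25 ± 0.840 to 4.11 ± 1.24 CPM, or -1.01 ± 0.21 in log2 (SE, edgeR adjusted p = 0.00243). The others that rose were the kinases Mapk8 and Mapk9 and the receptor Tnfrsf19, and the others that fell were the p75 interactor Bex3, the p75 homologue Nradd and the death regulators Bad and Bax, all named after their values were seen.

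For proneurotrophin processing and release, 12 genes were tested, and a further gene, Mmp7, did not pass the filter. Of the 12, 5 rose, 1 fell and 8 passed the adjusted p, with a median of 0.38 and a range of -1.15 to 1.96. Both ends of that range came from genes near the limit of detection. Plg, the 1 that fell, had 3 to 13 counts per library. Mmp3, among the 5 that rose, had 0 to 3 counts at 6m and 6 to 11 at 24m. Both were named after their values were seen. Pcsk6, a proprotein convertase, rose from 24.9 ± 1.61 to 53.8 ± 2.08 CPM (SD, n = 4 each), or 1.11 ± 0.08 in log2 (SE, edgeR adjusted p = 2.3e-05). Cadps2, which promotes release of dense-core vesicles that carry BDNF, rose from 63.8 ± 4.38 to 99.3 ± 15.7 CPM, or 0.64 ± 0.12 in log2 (SE, edgeR adjusted p = 0.00124). The latter call was lost without 24m replicate 4 at 0.54 and with the length or the GC trend removed at 0.27 and 0.38.

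Transcription factors known to act on the Bdnf gene were read beside Bdnf, which was itself not called. Of 12 tested, 6 rose, 1 fell and 10 passed the adjusted p, with a median of 0.67 and a range of -0.60 to 2.86. Mef2a, an activity-regulated MADS box factor, rose from 2.48 ± 1.04 to 18.1 ± 7.03 CPM (SD, n = 4 each), or 2.86 ± 0.37 in log2 (SE, edgeR adjusted p = 0.000211). Usf2, an E-box binding factor, fell from 356.2 ± 37.4 to 235.8 ± 30.1 CPM, or -0.60 ± 0.11 in log2 (SE, edgeR adjusted p = 0.00152). The call of Usf2 was lost without 6m replicate 4 at -0.52, without 24m replicate 4 at -0.53, and with library totals, quantile normalization or either trend removed at -0.38 to -0.45.

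Of 9 transcripts induced by neurotrophins, 4 rose, 0 fell and 4 passed the adjusted p, with a median of 0.65 and a range of -0.16 to 1.19. Past the adjusted p, 32.7% of all tested genes were higher and 29.9% lower. Arc, an activity-induced gene of synaptic plasticity, was at 31.0, 37.1, 24.8 and 33.9 CPM in 6m replicates 1 to 4. It was at 36.5, 82.0, 89.3 and 80.8 CPM in 24m replicates 1 to 4. Replicate 1 of 24m lay at the young level and the other 3 aged libraries lay above all young ones. Its log2 fold change was 1.19 ± 0.25 (SE, edgeR adjusted p = 0.00277). Dusp6, the gene of a MAP kinase phosphatase, had the smallest called value at 0.65 ± 0.20 (SE, edgeR adjusted p = 0.0186). Its ages overlapped through 24m replicate 1 at 13.3 CPM, and the call was lost without 6m replicate 1 (adjusted p = 0.058), without 24m replicate 2 (adjusted p = 0.0537) and without 24m replicate 4 at 0.56, after quantile normalization at 0.46 and with the GC trend removed at 0.53.

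**Figure D5:**
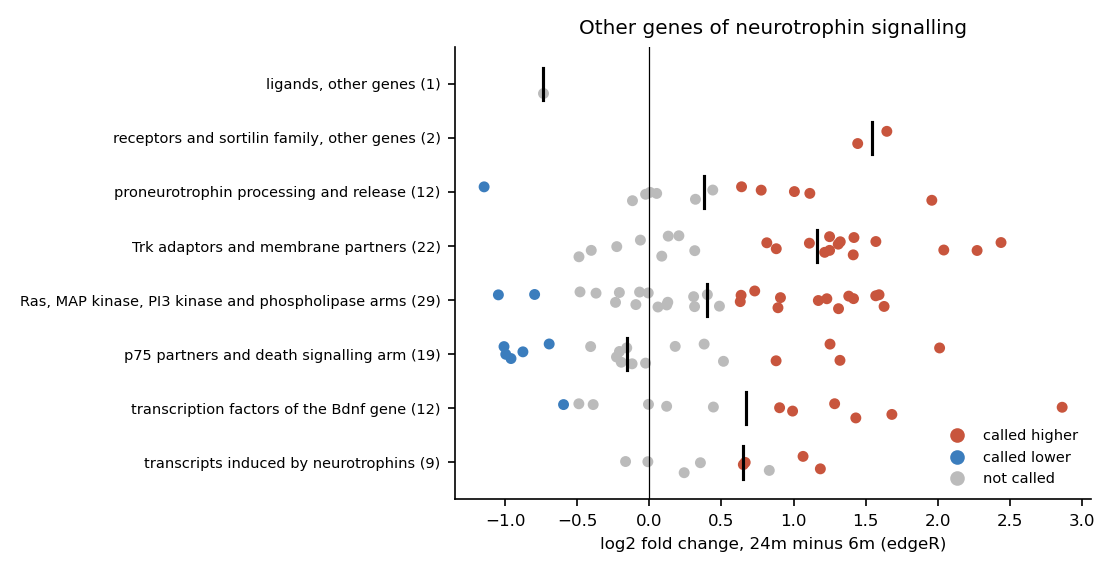
Log2 fold change (24m minus 6m, edgeR) of each tested gene in the 8 pathway lists, with the number of genes in brackets. Red points were called higher, blue points called lower and grey points not called, and black lines are list medians. The median of Trk adaptors and membrane partners lies at 1.16 and that of the p75 arm at -0.16.

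Neuronal markers in these brain libraries summed to 3287 to 3404 CPM at 6m and 3349 to 3584 CPM at 24m, with 1 of 6 higher and 1 lower. Of 7 cortical excitatory markers, 3 rose (sums of 1429 to 1752 and 1694 to 2107 CPM), and of 11 hippocampal markers, 3 rose and 2 fell (308 to 356.2 and 325.4 to 372 CPM). Of 6 oligodendrocyte markers, 1 rose (3282 to 4137 and 3540 to 4159 CPM). Of 6 microglial markers, 2 rose (410 to 441 and 422.5 to 567.6 CPM), and of 6 endothelial markers, 1 rose and 2 fell (74.3 to 108.9 and 43.0 to 66.9 CPM). Of 6 choroid plexus markers, 2 rose (1781 to 3206 and 825.5 to 2259 CPM). The highest 24m sum of neuronal, cortical, oligodendrocyte, microglial and choroid plexus markers and the lowest endothelial sum were those of replicate 1. Without it, these highest sums were 3465, 1972, 3887, 492.4 and 1797 CPM, and the lowest endothelial sum was 53.05 CPM. The part of these markers in the values of the 8 genes was not tested.

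The genes whose profile over the 8 libraries was most like that of Bdnf and of Ntrk2 were sought among 13537 named genes that averaged 1 CPM or more. Likeness was the root mean square difference of mean-centred log2 CPM. For Bdnf these were the zinc finger gene Zfp873 at 0.0901, the Golgi gene Yipf4 at 0.110 and the co-chaperone gene Dnaja1 at 0.110 log2 units. For Ntrk2 they were Slc25a51, the mitochondrial NAD carrier, at 0.0555, Ctnna1, which encodes alpha-catenin, at 0.0595, and the small GTPase gene Arl4c at 0.0644. None of these 6 genes was called, with log2 fold changes of -0.14 to -0.04 for the first 3 and 0.46 to 0.57 for the last 3. The 8 points of each profile share the libraries and their scaling.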

How the data were processed

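RNA of 8 mouse brains was sequenced by the authors as directional, poly(A)-selected, paired-end libraries. Per the labels and methods, reads were trimmed with Trim Galore 0.4.11, aligned to GRCm39 with HISAT2 2.1.0 and assigned to genes with featureCounts. The deposited table holds raw counts per gene and library, with no replicates pooled. The strand setting and the treatment of multimapping reads are not given in the sources used here, so overlapping genes carry that uncertainty. The authors normalized by quantiles and row medians before DESeq2, whereas the counts were used here as deposited.

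Symbols, positions and exonic lengths came from a later GENCODE annotation of GRCm39, in which 149 listed genes had no symbol. A gene was kept if over 5 counts were present in 4 or more of the 8 libraries. Ages were compared in edgeR 4.0.16 under R 4.3.3 by its quasi-likelihood test, with trimmed mean of M values (TMM) scaling, no covariate and Benjamini-Hochberg adjustment over all genes. The fit was tested on simulated data. Ratios, with 0.5 counts added, were compared by exact permutation, for which leaving out 1 library leaves 35 assignments. Intervals are 95%. Alternatives used DESeq2 1.42.0, limma 3.58.1, other scalings and filters, the replicate number as a block, and each library left out. Further alternatives used offsets smoothed per library (span 0.3) over exonic length or exonic GC content.

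Named genes were the 8 genes and all further ligands and receptors of the lists reported here. From each other pathway list came the called genes with the largest and the smallest log2 fold change at a mean of at least 1 CPM, and for Bdnf and Ntrk2 the 3 genes of most similar profile. The 8 genes, the 8 pathway lists and the 11 marker lists were chosen with earlier results of these data known. Isoforms were not analysed here.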

Additional observations from a re-analysis of the deposited data

Results flagged for a closer look

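Of 62 groups of 4 values examined, 2 held a library far from the other 3, where chance gives about 5% of groups. Cadps2, the gene of a dense-core vesicle release factor, was at 57.26 CPM in 6m replicate 4, below the other 6m libraries at 65.3 to 66.7 CPM (gap over range 0.845). Arc was at 36.52 CPM in 24m replicate 1, below the other 24m libraries at 80.8 to 89.3 CPM (gap over range 0.838). None of the levels or ratios of the 8 genes was marked in this way.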

How the results depend on the processing

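Ngfr, Sort1 and Sorcs1 were called higher under all 19 alternatives of the fit across genes. The number of the 8 genes called higher was 5 with library totals (32.6% of all genes), 5 with the adjusted p alone (32.7%), 4 after quantile normalization with DESeq2 (21.4%) and 3 to 5 with 1 library left out (23.02% to 28.16%). The number called lower was 1 after quantile normalization with DESeq2 (Ntf3, beside 23.3% of all genes) and 2 with the adjusted p alone (29.9%). It was 1 with the length trend removed (16.1%) and 1 with the GC trend removed (20.3%), Ntrk3 each. Over all genes, 1746 were called lower with library totals and 4999 with the adjusted p alone, against 3058.

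Signs turned for Bdnf with library totals (0.0598) and without 24m replicate 1 (-0.29 to 0.0055 over the libraries left out in turn), and for Ntf3 (0.10) and Ntrk2 (-0.20) with the length trend removed. The genes most like Bdnf were chosen for their likeness to it over these same libraries, so that they move with it follows from the choice: with library totals Zfp873 was at 0.092, Yipf4 at 0.19 and Dnaja1 at 0.080, and with 1 library left out Zfp873 was at -0.24 to 0.0069, above 0 without 24m replicate 1, and Yipf4 at -0.13 to 0.13, above 0 without 24m replicate 1 or 6m replicate 2, while Dnaja1 was at -0.21 to -0.027, the latter without 24m replicate 1. The cause was not tested. With 1 library left out, the difference in log2 ratio was -0.83 to -0.59 for Bdnf to Ntrk2, -0.42 to -0.16 for Ntf3 to Bdnf and -0.0699 to 0.0769 for Ntf3 to Ntrk3. The longest transcript as the length left 4 genes at their place at 24m. For the 21 other named genes, 369 of 398 values kept direction and call, 16 lost a call, 7 gained one and 6 turned sign.

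Deviations of same-numbered libraries from their group means correlated at 0.271, 0.143, 0.0778 and -0.348, so the numbers were not treated as pairs, and of the 4 numbers only number 1 correlated best with itself. With the replicate block, 4112 genes were called higher and 3130 lower, and no call among the 8 genes moved, while Ntf5 was called lower at -0.78 (adjusted p = 0.0442). Under an exact sign-flip permutation over the pairs, which cannot give a p below 0.125, the ratios kept differences of 0.97, 0.72, 1.11, -0.999 and -0.87 with an adjusted p of 0.167 each. Without 24m replicate 1, chosen after seeing the data, 7 of the 8 genes, beside 72.2% of all genes, did not overlap between ages. Low counts limit Ntf5, Plg and Mmp3, and shared exons with antisense genes limit Bdnf, Ntf3, Ntrk3, Sort1 and Sorcs1.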
